A study of Homo sapiens with 14 samples.

Results

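Glycolysis and the transcriptional response to low oxygen were followed through 35 genes, of which 17 encode glycolytic enzymes, 3 encode regulators of glycolytic flux, 6 belong to the hypoxia-inducible factor (HIF) pathway and 9 are HIF targets. They were taken by gene symbol from both deposited comparison tables. The siRNA table of 11261 genes lists 33 of them and the deletion table of 11835 genes lists 34, out of 12202 genes listed in either table. PFKFB4 appears only in the deletion table, and the expression of EGLN3 was not analysed here.

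The study used 14 RNA libraries of teloHAEC, an established line of human aortic endothelial cells immortalised with telomerase and grown with a VEGF supplement. In the siRNA comparison, 4 libraries from cells reverse transfected with Silencer Select siRNA against CALCRL, which encodes a G protein-coupled receptor for adrenomedullin and related peptides, were set against 4 given scrambled siRNA, with lysis 24 h after transfection. In the deletion comparison, 3 libraries from cells electroporated with Cas9 complexes whose guides flank a CALCRL enhancer (enhancer-8) were set against 3 that received Cas9 with a guide against HPRT, so the controls received Cas9 as well. These cells were collected 2 days later, the labels name no selection of clones, and the share of alleles that carried the deletion was not analysed here. Both treated groups thus differ in delivery, time and control, and they share no control libraries.

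All libraries were made with a QuantSeq 3′ kit, which reads near the polyadenylated end of a transcript. The tables hold 1 fold change per gene and no value for a single library, so the depth and the spread of individual libraries are unknown and the deposited standard error (SE) carries the precision. Nothing in the labels says that the siRNA replicates were separate cultures, and the sample titles of the deletion comparison only number its replicates. In both comparisons p-values thus measure the spread between these libraries. CALCRL itself stood at 34.0% of control after siRNA and at 36.2% after the deletion. Its log2 fold changes in the authors' deposited tables were -1.56 (SE 0.17, adjusted p = 1.90e-17) and -1.47 (SE 0.43, adjusted p = 0.00962). Of 14 endothelial markers 13 were listed, and PECAM1 was not. Of the markers of other cell types, ACTA2 (smooth muscle), CD68 (leukocytes) and KRT19 (epithelium) were listed, none of which passed the test, and none of 6 fibroblast markers was listed.

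Glycolysis splits glucose into pyruvate in a preparatory phase that spends ATP and a payoff phase that returns it, and lactate dehydrogenase then converts pyruvate to lactate. Endothelial cells are known to draw much of their ATP from this route. HIF is a pair of an oxygen-sensitive alpha subunit and the stable beta subunit ARNT. With oxygen present, the prolyl hydroxylases of the EGLN family mark the alpha subunit for VHL, which sends it to degradation. When oxygen is short, HIF binds the core letters ACGTG or GCGTG near many glycolytic genes and raises their transcription.

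Windows with a match to these letters are shown for the 13 genes called in either comparison. For each gene the match nearest a start site was taken, over all its RefSeq start sites and both orientations, among matches with room for the printed flanks. A window can thus lie well inside the annotated gene, as for HK1 and PFKP. Which start sites these cells use was not tested. In HK1 and PKM it begins 15 and 12 bases downstream of the start. Each line gives 29 bases of a RefSeq start-site window (GRCh38.p14, 250 bases upstream to 50 downstream of a transcription start), 5′ to 3′ on the gene's strand. Capitals mark the match that was taken, read as ACGTG or GCGTG or as their reverse complements CACGT or CACGC. Other matches in a window stay in lower case, such as a further GCGTG in HK2 and in PFKP.
HK1 (chr10:69318184-69318212, plus strand): gattaggcggggCACGCcggggagaggtg
HK2 (chr2:74834067-74834095, plus strand): aatgggcgtgcgCACGTcactgatccgga
GPI (chr19:34364818-34364846, plus strand): acactgcctgtaACGTGgaaggtgttcga
PFKL (chr21:44299877-44299905, plus strand): tgctcagggcccGCGTGacattgcacagg
PFKP (chr10:3104584-3104612, plus strand): ctcagtgcgtggGCGTGaaccccacagtt
ALDOA (chr16:30064374-30064402, plus strand): ggcagggaggccACGTGatccgagtcccc
TPI1 (chr12:6868076-6868104, plus strand): cgtgcgccgccgCACGTagccccagactc
GAPDH (chr12:6535172-6535200, plus strand): ctctgcggggtcACGTGtcgcagaggagc
ENO1 (chr1:8878742-8878770, minus strand): ggagctgaggggGCGTGccccggaggcgg
PKM (chr15:72231162-72231190, minus strand): gcacagcagctgCACGCgccgtggctccg
PFKFB4 (chr3:48556953-48556981, minus strand): tgagttgggcatGCGTGgtcggaggccgg
EGLN1 (chr1:231422284-231422312, minus strand): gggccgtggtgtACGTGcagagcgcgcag
ANGPTL4 (chr19:8363909-8363937, plus strand): ggaaagaagagtCACGTctcccacggttc

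Of the 35 genes, 31 matched a RefSeq window and 27 of these held a core at some start site. VHL, BNIP3L, VEGFA and NDRG1 are named only. EGLN3 matched without a core and has no deletion value here, so it is left out of the counts by deletion result. Over start sites, 36 of 56 windows of these genes held a core (64.3%), against 17012 of 35116 windows of all genes (48.4%). The windows of these genes were also richer in G and C, with a median of 68.8% against 58.7%, and the part of base composition in the difference was not tested. The palindrome CACGTG, which overlaps ACGTG and CACGT and is known as an E-box, was in 14.3% of their windows and 7.26% of all. A core was present in 9 of the 9 enzymes that were higher after the deletion, in 3 of the 3 genes that were lower, and in 15 of the 18 matched genes that did not pass the test. A gene was counted when any of its windows held a core, as HK1 did in 2 of 7. The same share per gene was not worked out over all genes, so these counts have no background beside them. A match describes letters in a window and is no evidence of binding.

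After the enhancer deletion, transcripts of 9 of the 17 glycolytic enzymes rose, to between 162% and 281% of control. HK2, PFKFB4 and EGLN1 fell. Thus 12 of 34 genes (35.3%) passed an adjusted p of 0.05, where 15.8% of the 11830 genes tested in that comparison did. The 9 genes called higher stood beside a background of 7.40% called higher, and the 3 called lower beside 8.44% called lower. With a trend on G and C content removed, 2 were higher and 2 lower, and with a trend on mean count removed 3 and 5. With a Student t reference, or with the statistics divided by their robust SD, none of the 34 and none of all genes passed. Of the 34, 11 and 3 had an unadjusted p under 0.05. The median log2 fold change of the 17 enzymes was 0.80 and that of all genes 0.00. In such bulk samples a change per cell and a change in the mix of cells cannot be told apart. After siRNA, 1 of 33 genes passed, ANGPTL4, and it was lower, where 3.46% of 11261 genes did, 1.05% higher and 2.42% lower. The choice of the list followed earlier results of these data, so these counts describe the list and are no independent evidence about it.

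**Figure D1:**
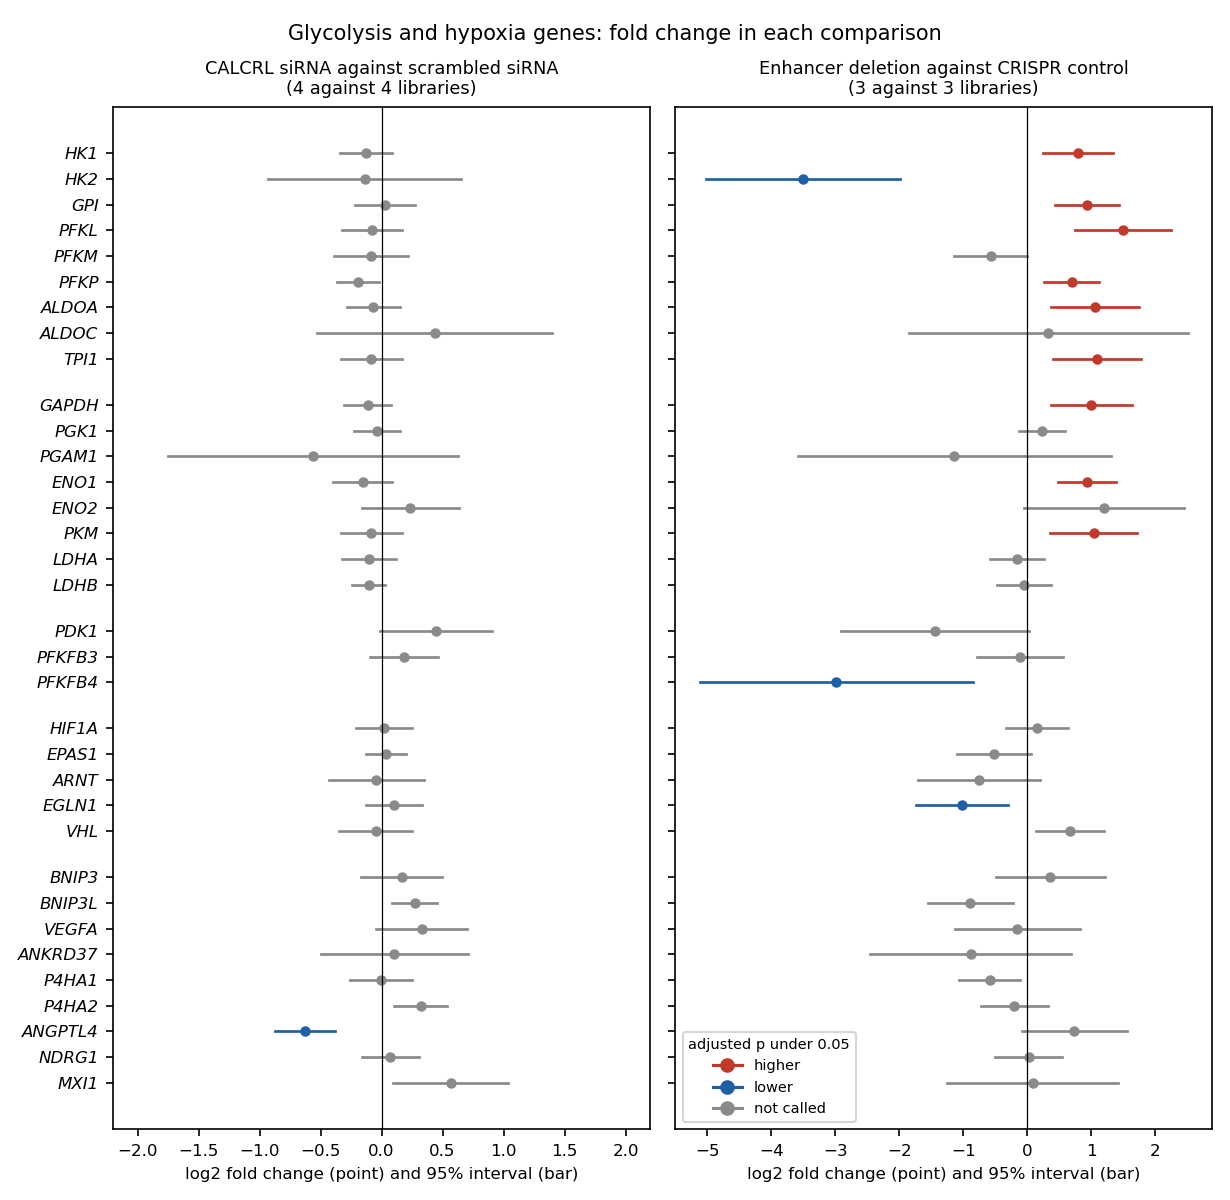
Log2 fold change against the control group (x axis, different scales in the panels) for each listed gene (y axis), in the siRNA and the deletion comparison, with points from the authors' deposited tables; bars are 95% intervals, and red (higher) and blue (lower) points passed an adjusted p of 0.05. In the deletion panel 9 enzymes lie to the right of 0 and HK2, PFKFB4 and EGLN1 to the left, and in the siRNA panel ANGPTL4 alone is coloured.

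The preparatory phase moved most widely. Hexokinase, which traps glucose in the cell as glucose 6-phosphate, is encoded here by a pair of genes that moved in opposite directions. For HK1, the group means of normalised counts implied by the deposited mean and fold change were 790.2 in controls and 1372 after the deletion, 174% of control (95% interval 119 to 254). HK2, the isoform known as inducible, went from 122 to 10.7 normalised counts, 8.80% of control (95% interval 3.09 to 25.1). In the authors' deposited table the log2 fold changes were 0.80 for HK1 (SE 0.28, adjusted p = 0.0356) and -3.51 for HK2 (SE 0.77, adjusted p = 3.90e-04). The HK2 fall was the largest change among the 34 genes. Its precision was poor in both tables: in the siRNA table its SE was 2.11 times that of genes of like mean count, and in the deletion table it was 1.54 times that. Such genes were often lower after the deletion: of 219 genes over 2 times in the siRNA table, 214 were tested in the deletion table, where 144 were called lower and 2 higher. The part of this uneven spread in the HK2 result was not tested.

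GPI, which turns glucose 6-phosphate into fructose 6-phosphate, had implied means of 971 and 1856 normalised counts, 191% of control (95% interval 135 to 271). The authors' deposited table gives it a log2 fold change of 0.93 (SE 0.26, adjusted p = 0.00594). Phosphofructokinase, the committed step, has liver (PFKL), muscle (PFKM) and platelet (PFKP) forms. PFKL rose from 238 to 669.6 normalised counts, 281% of control (95% interval 167 to 474). PFKP rose from 1628 to 2631, 162% of control (95% interval 119.6 to 218). PFKM stood at 212 and 143, 67.3% of control (95% interval 45.3 to 100.1), and did not pass. The log2 fold changes in the authors' deposited table were 1.49 for PFKL (SE 0.38, adjusted p = 0.00297), 0.69 for PFKP (SE 0.22, adjusted p = 0.0192) and -0.57 for PFKM (SE 0.29, adjusted p = 0.170). PFKL and PFKP were thus above control in the deposited test and PFKM was not shown to differ from it. With the trend on G and C content removed, PFKL was at 0.79 (adjusted p = 0.156) and PFKP at 0.60 (adjusted p = 0.0523), and neither passed.

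Aldolase cleaves fructose 1,6-bisphosphate, and triose phosphate isomerase (TPI1) interconverts the products. ALDOA rose from 1222 to 2545 normalised counts, 208% of control (95% interval 129.6 to 335), with a log2 fold change of 1.06 in the authors' deposited table (SE 0.35, adjusted p = 0.0235). TPI1 rose from 2078 to 4444, 214% of control (95% interval 133 to 344), at 1.10 in the authors' deposited table (SE 0.35, adjusted p = 0.0191). ALDOC, at a mean of 11.7 normalised counts, had an interval of 27.8% to 568% of control, too wide to place it.

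**Figure D2:**
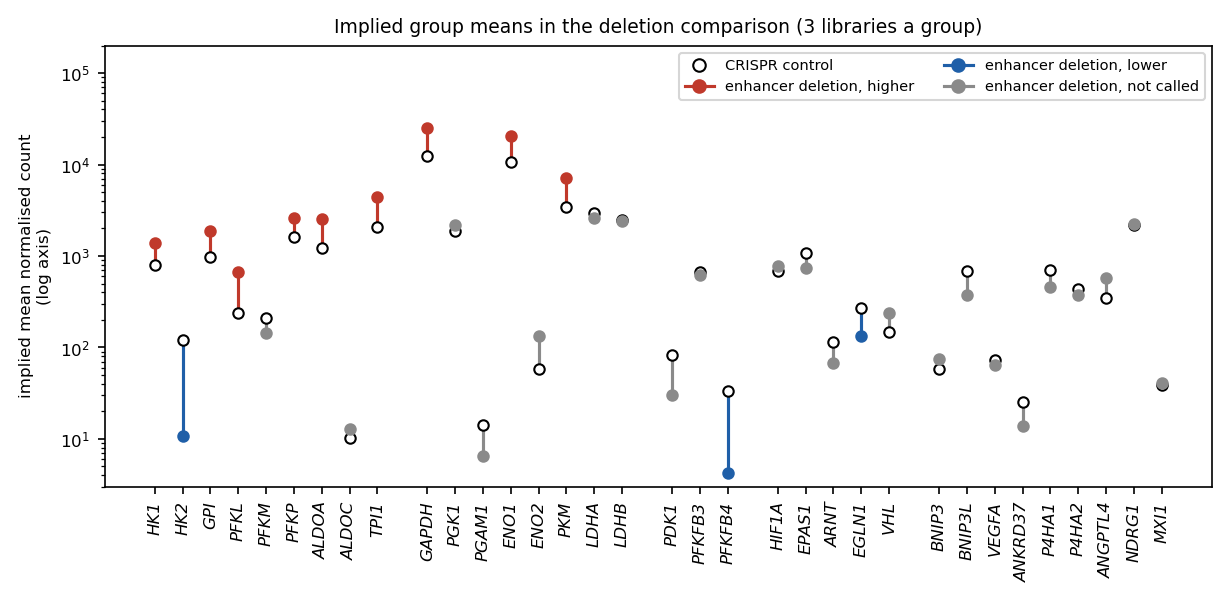
Mean normalised counts of each group, implied by the deposited mean and fold change (log axis), for the listed genes in the deletion comparison. Open points are the CRISPR control and filled points the enhancer deletion, red where higher, blue where lower and grey where the test was not passed, and the widest gap is that of HK2, from 122 to 10.7.

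In the payoff phase, 3 of 8 enzymes rose (37.5%, beside 7.40% of all genes) and none fell. GAPDH, which makes NADH and 1,3-bisphosphoglycerate, had the largest mean count of the 34 genes. Its implied means were 12507 and 25075 normalised counts, 200.5% of control (95% interval 129 to 312). ENO1, an enolase, stood at 10776 and 20603, 191% of control (95% interval 139 to 263). PKM, pyruvate kinase, stood at 3457 and 7113, 206% of control (95% interval 129 to 329). In the deposited test the deletion groups were higher for each of these genes, by similar ratios. The log2 fold changes in the authors' deposited table were 1.00 for GAPDH (SE 0.33, adjusted p = 0.0212), 0.93 for ENO1 (SE 0.24, adjusted p = 0.00230) and 1.04 for PKM (SE 0.35, adjusted p = 0.0250). With the trend on G and C content removed none of the 3 passed. GAPDH was then at 0.59 (adjusted p = 0.232), ENO1 at 0.51 (adjusted p = 0.133) and PKM at 0.64 (adjusted p = 0.213). With the trend on mean count removed ENO1 passed, and GAPDH and PKM did not. One processed pseudogene of a member was listed, GAPDHP65, which did not pass at -1.83 in the authors' deposited table (SE 1.18, adjusted p = 0.293).

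The other 5 payoff enzymes did not pass the test. PGK1, which makes the first ATP of the phase, was at 118% of control, and its interval of 91.5% to 151% ended below the estimates of the 9 risen enzymes. The lactate dehydrogenase subunits LDHA and LDHB were at 89.3% (95% interval 66.5 to 120.0) and 96.6% (95% interval 71.8 to 130.0). Both intervals also ended below the estimates of the 9 risen enzymes. They overlapped the interval of PFKP, 119.6% to 218%, and no difference between genes was tested. ENO2, the neuronal enolase, had the second largest estimate of the 17 enzymes, 229% of control, with an interval of 96.4% to 546%. PGAM1 was at 45.4% (95% interval 8.32 to 247), at a mean of 10.4 normalised counts. Its SE in the siRNA table was 2.10 times that of genes of like mean count.

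The 3 regulators of flux all had negative fold changes, and 1 of them passed (33.3%, beside 8.44% of all genes called lower). PFKFB4 makes fructose 2,6-bisphosphate, the activator of phosphofructokinase. Its implied means were 33.4 and 4.23 normalised counts, 12.7% of control (95% interval 2.88 to 55.8), and its log2 fold change in the authors' deposited table was -2.98 (SE 1.09, adjusted p = 0.0431). Its counts were the fewest of the 12 called genes. PDK1, the kinase that closes pyruvate dehydrogenase, was at 37.0% of control (95% interval 13.4 to 102). PFKFB3, the isoform known from sprouting endothelium, was at 92.7% (95% interval 58.0 to 148).

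Among the 5 HIF subunits and oxygen sensors tested, EGLN1 alone passed (20.0%, beside 8.44% of all genes called lower). EGLN1, the main oxygen-sensing prolyl hydroxylase and itself a HIF target, fell from 268 to 132 normalised counts, 49.2% of control (95% interval 29.9 to 81.1). The authors' deposited table gives it a log2 fold change of -1.02 (SE 0.37, adjusted p = 0.0390). HIF1A, an alpha subunit, was at 111% of control (95% interval 79.3 to 156), and EPAS1, the alpha subunit typical of endothelium, at 69.9% (95% interval 47.0 to 104). ARNT was at 59.5% (95% interval 30.8 to 115) and VHL at 159.5% (95% interval 110.5 to 230.3). VHL missed the threshold at an adjusted p of 0.0679 in the authors' deposited table.

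None of the 9 HIF targets passed the authors' DESeq2 Wald test after the deletion. The nearest were BNIP3L, a mitophagy receptor, at 54.1% of control (95% interval 34.1 to 85.7), and P4HA1, a collagen prolyl hydroxylase, at 66.6% (95% interval 48.0 to 92.4). Their adjusted p in the authors' deposited table were 0.0539 and 0.0753, and they were the 2 of the 9 with an unadjusted p under 0.05. With a trend on mean count removed, both passed and were lower. VEGFA, the endothelial growth factor, was at 89.9% (95% interval 45.8 to 177), NDRG1 at 102% (95% interval 70.7 to 147) and P4HA2 at 87.2% (95% interval 60.3 to 126). ANGPTL4, a secreted inhibitor of lipoprotein lipase, was at 166% (95% interval 94.1 to 294). BNIP3, a relative of BNIP3L, was at 128%, ANKRD37 at 54.2% and MXI1, a MYC antagonist, at 106%, each with an interval that spans control. Over the 9 targets the fold changes had a median of -0.15, with 4 above 0 and 5 below.

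Base composition and level moved with the deletion result. The share of G and C in the last 500 transcript bases, where 3′ reads fall, had a median of 56.2% in the 9 risen enzymes (45.0% to 66.8%), 33.2% in the 3 fallen genes (31.8% to 51.8%) and 39.3% in the 22 others. Across all genes the median log2 fold change went from -0.27 in the 10% of genes with the least G and C to 0.59 in the 10% with the most, and the share called higher from 1.89% to 17.7%. Across the 34 genes, G and C content and fold change had a Spearman rho of 0.665 and a Pearson r of 0.532. Over all 11630 genes with a value the rho was 0.303 and the r 0.249, and all points share the same 6 libraries. Level also differed: 8 of the 9 risen enzymes were in the 10% of genes with the largest mean counts, of which 20.5% were called higher. In that same group, PGK1, LDHA, LDHB, EPAS1 and NDRG1 did not pass.

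**Figure D3:**
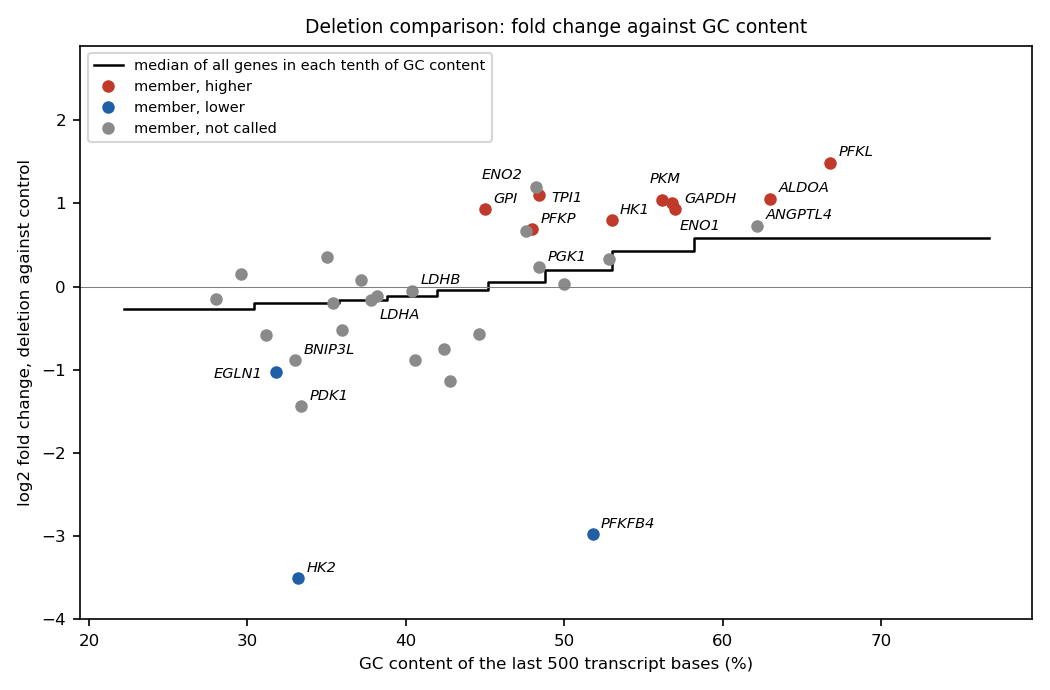
Log2 fold change of the 34 listed genes in the deletion comparison (y axis) against the G and C content of the last 500 transcript bases (x axis, %); the stepped line is the median of all genes in 10 equal classes of G and C content. The risen enzymes lie between 45.0% and 66.8%, above the line, which goes from -0.27 to 0.59.

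With the trend on G and C content removed, 4 of the 34 genes passed, each of them among the 12, where 12.4% of all genes tested did. GPI kept a log2 fold change of 0.94 (adjusted p = 0.00666) and TPI1 one of 0.99 (adjusted p = 0.0416), and HK2 and PFKFB4 remained lower, at -3.28 and -3.22. The other 7 risen enzymes kept positive values of 0.46 to 0.79 without passing, and EGLN1 was at -0.78. With a trend on mean count removed instead, ENO1, GPI and PFKL were higher and HK2, PFKFB4, EGLN1, BNIP3L and P4HA1 lower, 8 calls where 14.5% of all genes were called. When the deposited statistic was read against a Student t distribution with 4 degrees of freedom, none of the 34 and none of all genes (0%) passed. The targeted CALCRL did not pass either, so this zero does not set the 34 genes apart. Of the 34, 11 had an unadjusted p under 0.05. When the statistics were divided by their robust SD over all genes, 1.88, again none of all genes (0%) passed and 3 of the 34 had an unadjusted p under 0.05. The part of base composition, level or spread in the rise of the enzymes was not tested.

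**Figure D4:**
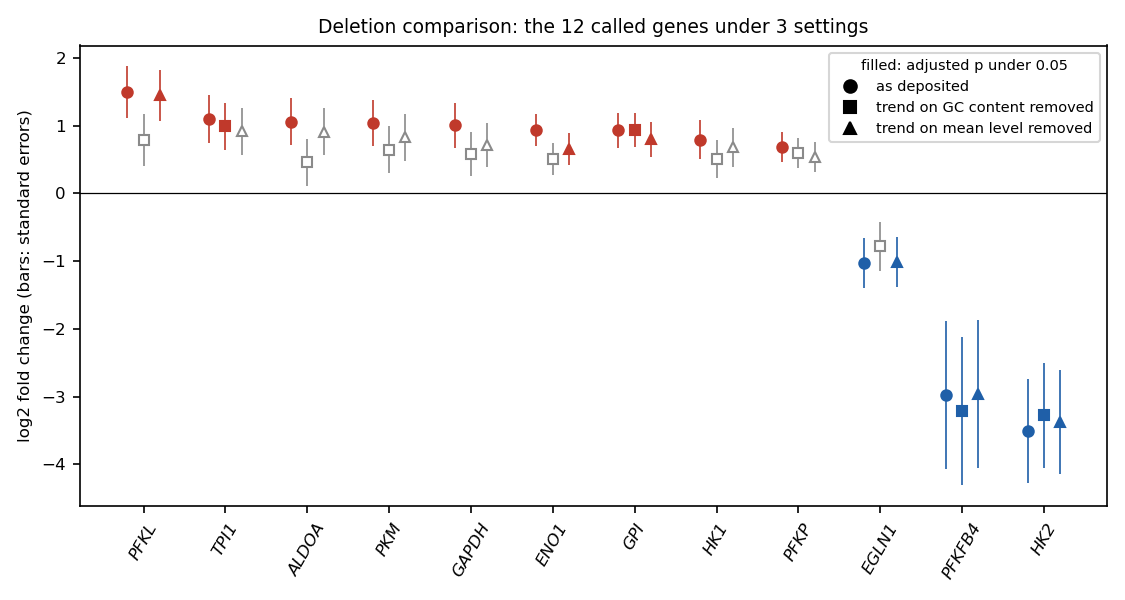
Log2 fold change (y axis, bars are standard errors) of the 12 genes called in the deletion comparison (x axis), as deposited (circles), with the trend on G and C content removed (squares) and with the trend on mean count removed (triangles); filled symbols passed an adjusted p of 0.05 and open ones did not. The sign of each of the 12 genes is the same in the 3 settings, and GPI, HK2 and PFKFB4 are filled in each.

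After siRNA against CALCRL, ANGPTL4 alone passed. Its implied means were 743 normalised counts with scrambled siRNA and 481 with CALCRL siRNA, 64.8% of control (95% interval 54.7 to 76.7). The authors' deposited table gives a log2 fold change of -0.63 (SE 0.12, adjusted p = 6.08e-05). Read against a Student t distribution with 6 degrees of freedom the call was lost (0.0444% of all genes passed), with 3 of 33 genes at an unadjusted p under 0.05. Among the HIF targets, 7 of 9 had positive fold changes, among them BNIP3L at 121% of control (95% interval 106 to 137) and P4HA2 at 125% (95% interval 108 to 145). Their adjusted p in the authors' deposited table were 0.0968 and 0.0841. MXI1 was at 148% (95% interval 107 to 205, adjusted p = 0.244 in the authors' deposited table) and VEGFA at 125% (95% interval 97.1 to 162).

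The enzymes were measured more tightly in the siRNA comparison, where the median SE of all genes was 0.17 against 0.41 for the deletion. Of the 17 enzymes, 14 had fold changes below 0, with a median of -0.09, and none passed the authors' DESeq2 Wald test. PFKP was the only enzyme with an interval that excluded control, at 87.4% (95% interval 77.5 to 98.6, adjusted p = 0.302 in the authors' deposited table). GAPDH was at 92.4% (95% interval 80.8 to 106), ENO1 at 89.8% (95% interval 76.0 to 106) and TPI1 at 94.4% (95% interval 79.5 to 112). For PFKL the value was 94.7% (95% interval 79.8 to 112). HK2 was at 91.0% (95% interval 52.6 to 157), a range that excludes a fall of the size seen after the deletion. EGLN1 was at 107% (95% interval 91.6 to 126), HIF1A at 102% (95% interval 86.6 to 119), EPAS1 at 103% (95% interval 91.5 to 115) and PDK1 at 136% (95% interval 99.1 to 187). Across the 33 genes, fold change and G and C content had a Spearman rho of -0.478 and a Pearson r of -0.451, over 8 shared libraries. Over all 11099 genes with a value the rho was 0.074 and the r 0.079.

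The word GTAACAA was looked for in the longest annotated 3′ UTR of each gene. LDHA alone of 33 genes held it, as did 10.7% of the 10639 genes with a 3′ UTR in the siRNA table. The word was chosen in earlier work on these data, as one tied to lower values after siRNA. Whether these cells make LDHA with this longest 3′ UTR was not tested. The site begins at base 908 of its 1144 bases in GENCODE 29, with the word in capitals.
LDHA: tggaagctgGTAACAAttaaaaaca
After siRNA LDHA was at 92.9% of control (95% interval 79.7 to 108).

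The difference between the comparisons was tested directly for the 33 genes listed in both, as the deletion fold change minus the siRNA fold change. For 13 genes it passed an adjusted p of 0.05 over the 10891 genes listed in both tables, of which 13.7% passed. The deletion value was above the siRNA value for 10 of them, the 9 risen enzymes and ANGPTL4, beside 6.49% of all genes. It was below for HK2, EGLN1 and BNIP3L, beside 7.22% of all genes. ANGPTL4, at 64.8% of control after siRNA and 166% after the deletion, differed by 1.36 on the log2 scale (SE 0.44, adjusted p = 0.0222). BNIP3L, at 121% and 54.1%, differed by -1.16 (SE 0.35, adjusted p = 0.0156). With the trend on G and C content removed in each table, 4 of the 33 differences passed, those of GPI, HK2, PFKP and TPI1, where 11.3% of all genes did. With the trend on mean count removed 7 passed, where 12.6% of all genes did. With a Student t reference none passed and 15 of 33 had an unadjusted p under 0.05, and with division by the robust SD none passed and 4 did. Delivery, time point and control differ together between the comparisons and cannot be told apart from the target.

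**Figure D5:**
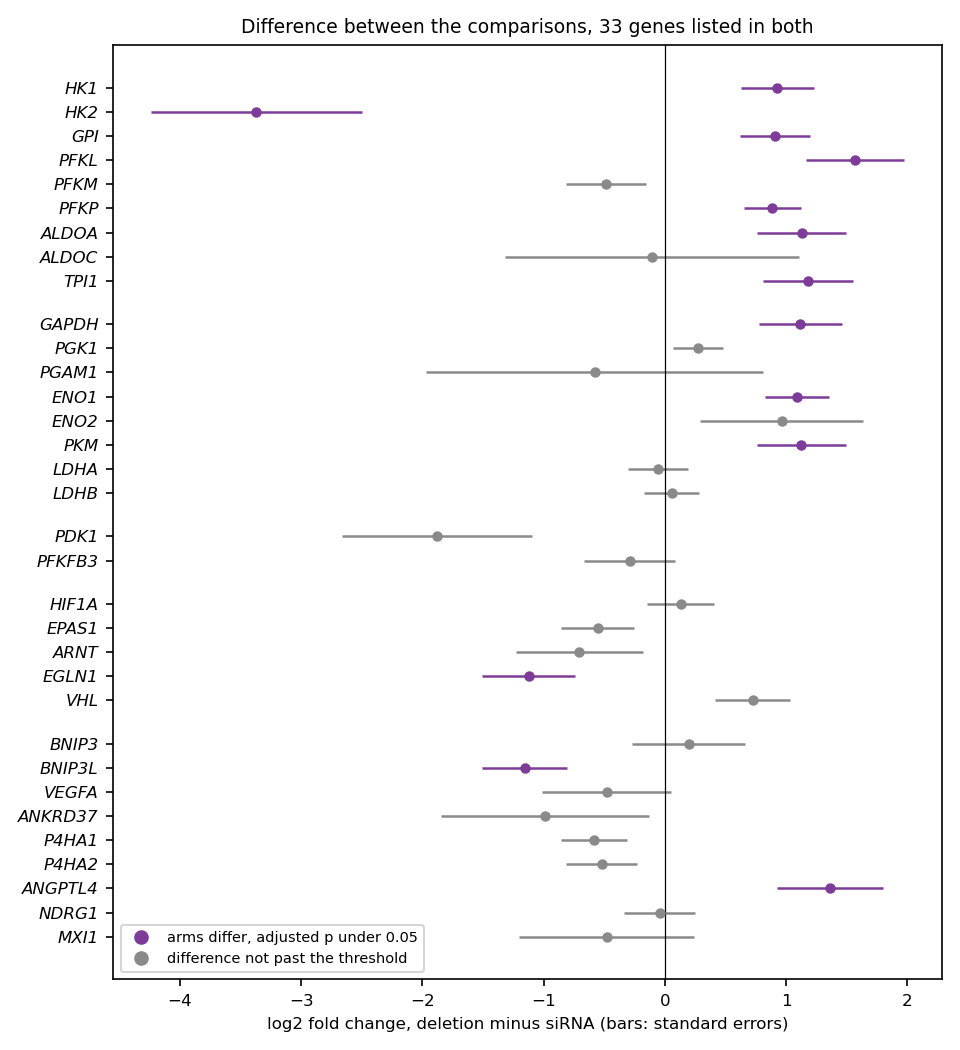
Deletion log2 fold change minus siRNA log2 fold change (x axis) for the 33 genes listed in both tables (y axis), with standard errors as bars; coloured points passed an adjusted p of 0.05. The enzyme points lie mostly to the right of 0, HK2 lies at -3.37 and ANGPTL4 at 1.36.

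Neighbouring pathways were described by 6 further lists of 90 genes tested after the deletion, members left out, of which 6 rose (6.67%, beside 7.40% of all genes) and 15 fell (16.7%, beside 8.44%). The same 2 shares of all genes, 7.40% higher and 8.44% lower, stand behind the counts of each list. Their 21 calls became 9 with the trend on G and C content removed. With the Student t reference and with the robust SD none passed, with 17 and 5 genes at an unadjusted p under 0.05. In glucose and lactate transport, 1 of 7 genes rose and 1 fell (14.3% each way). The lactate exporter SLC16A3 rose, at 1.29 in the authors' deposited table (SE 0.31, adjusted p = 0.00111), to 245% of control. The glucose importer SLC2A1 fell, at -1.36 in the authors' deposited table (SE 0.42, adjusted p = 0.0152), to 39.0%. Among the genes for the first steps of glucose use, SLC2A1 and HK2 were thus lower and HK1 higher. The HK1 call was lost with the trend on G and C content or that on mean count removed. The glucose transporters SLC2A3 and SLC2A6, at 61.9% and 164% of control, did not pass.

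The pentose phosphate pathway, which makes NADPH and ribose from glucose 6-phosphate, had 2 of 8 genes higher (25.0%) and 1 lower (12.5%), and the median of its log2 fold changes was 0.41. PGD, a dehydrogenase of this pathway, was at 183% of control. RPE, an epimerase of the later part, was at 41.4%. In the authors' deposited table PGD was at 0.87 (SE 0.29, adjusted p = 0.0231) and RPE at -1.27 (SE 0.32, adjusted p = 0.00236). Of 14 enzymes of glycogen and hexosamine metabolism, none rose and 4 fell (28.6%), with a median of -0.35. Among them were GYS1 (glycogen synthase, 21.3% of control), and UAP1 and PGM3 of UDP-N-acetylglucosamine synthesis (47.2% and 57.7%). Of 11 genes for the entry of pyruvate into mitochondria, none passed the authors' DESeq2 Wald test, 2 had an unadjusted p under 0.05 (DLAT and PDHB, named after their values were seen), and their median was -0.22.

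Among 14 other HIF regulators, 2 rose and 2 fell (14.3% each way). EGLN2, a relative of EGLN1, was at 243% of control, and HSP90AA1, a chaperone of HIF alpha, at 159.6%. SIAH2, a ubiquitin ligase for prolyl hydroxylases, was at 29.4% and TCEB1 (elongin C), a partner of VHL, at 55.4%. Of 41 other HIF targets, 2 rose (4.88%) and 9 fell (22.0%), with a median of -0.27. The integrin subunit ITGA5 was at 187%, and the other risen target was SLC16A3. Among the 9 were GYS1, FAM162A (32.1% of control) and the collagen lysyl hydroxylase PLOD2 (35.1%). Of 13 endothelial markers tested after the deletion, CDH5 and KDR were lower (15.4%, beside 8.44% of all genes), at 37.0% and 48.3% of control. KDR is also 1 of the 9 fallen targets. No marker was called higher, and 6 of the 13 had fold changes above 0 and 7 below, with a median of -0.01. After siRNA 1 of the 13 passed, EGFL7, at 72.6% of control.

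After siRNA, 5 of 90 genes of the same lists passed (5.56%), beside 3.46% of all genes. SLC2A3, a glucose importer, was at 136% of control, with a log2 fold change of 0.45 in the authors' deposited table (SE 0.14, adjusted p = 0.0347). The HIF targets STC1 and WSB1 were at 265% and 175%. AK4, an adenylate kinase of mitochondria, was at 63.3% and EDN1, the endothelin 1 gene, at 77.3%. STC1 had a log2 fold change of 1.41 in the authors' deposited table (SE 0.09, adjusted p = 9.85e-50), the largest among the pathway genes called there. With the Student t reference 1 of these 5 calls remained, that of STC1. STC1 was at 100.3% of control after the deletion.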

How the data were processed

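Members and gene lists were chosen with earlier results of these data known. Going by the names and headers of the files, featureCounts and DESeq2 made the authors' deposited tables, which list for each gene the mean normalised count, the log2 fold change and standard error, the Wald score, the p-value and a Benjamini-Hochberg adjusted p-value. The submitters' processing notes name hg19 and edgeR 3.24.3 without a role. The aligner, annotation, filters and use of strand are not given in the sources used here, so overlapping genes are uncertain.

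The main test of a single gene in each comparison is the authors' DESeq2 Wald test, adjusted over the whole table, and 5 deletion rows without a p-value were left out. Adjusted p-values given with a trend removed or with another reference were recomputed from the deposited values. They were adjusted again over all genes tested in that setting. The planned count model needs counts of each library and was not used here. For intervals of 95%, a normal quantile of standard errors was taken on both sides of the log2 value and expressed as percent of control. Group means were solved from the mean count and fold change. The difference between comparisons was divided by the root of the summed squared standard errors, referred to a normal distribution and adjusted over all shared genes (checked on simulated data). Trends were removed by lowess (span 0.3, statsmodels 0.14.6). The G and C content and 3′ UTRs came from GENCODE 29 on GRCh38, for 11099 and 11630 genes, which may differ from the authors' annotation. For each gene the transcript with the longest 3′ UTR was used. No coordinate was carried between builds. All members were named, with CALCRL, pseudogene rows of members, up to 4 called genes with the largest change per pathway list and comparison, and markers that touch a result. Some genes that this rule takes from the pathway lists are not reported here.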

Additional observations from a re-analysis of the deposited data

Results flagged for a closer look

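The deletion and siRNA comparisons differed from each other for 13 genes, by a direct test of the difference of the log2 fold changes (deletion minus siRNA, normal reference, Benjamini-Hochberg adjusted over all genes in both tables). Of all 10891 genes, 13.7% passed this test, 6.49% with a positive and 7.22% with a negative difference. With a Student t reference or division by the robust SD none of the 13 remained. With the G and C trend removed 4 remained. The difference was positive for PFKL at 1.57 (adjusted p = 0.00371), ANGPTL4 at 1.36 (adjusted p = 0.0222), TPI1 at 1.18 (adjusted p = 0.0201), ALDOA at 1.13 (adjusted p = 0.0236) and PKM at 1.12 (adjusted p = 0.0252). It was also positive for GAPDH at 1.12 (adjusted p = 0.0156), ENO1 at 1.09 (adjusted p = 0.00202), HK1 at 0.93 (adjusted p = 0.0243), GPI at 0.91 (adjusted p = 0.0203) and PFKP at 0.89 (adjusted p = 0.00580). It was negative for HK2 at -3.37 (adjusted p = 0.00389), BNIP3L at -1.16 (adjusted p = 0.0156) and EGLN1 at -1.12 (adjusted p = 0.0326).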

How the results depend on the processing

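No paired analysis was possible because values of individual libraries are needed for it and were not analysed here. The planned replicate block, leaving out of each replicate and edgeR normalisation were likewise not run, and outlying libraries could not be looked for. Of the listed genes called, the siRNA count of 1 became 0 with a Student t reference and 3 at an adjusted p under 0.1. The deletion count of 12 became 0 with the t reference, 0 with division by the robust SD and 4 with the G and C trend removed; the difference count of 13 became 0, 0 and 4, and 7 with the level trend removed. Over the pathway lists, 5 siRNA calls became 1 with the t reference and 3 with the robust SD, 21 deletion calls became 0, 0 and 9 (t reference, robust SD, G and C trend removed), and 16 calls of a difference became 0, 0 and 10. The unadjusted counts beside these zeros were 3 (siRNA), 11 and 3 (deletion), 15 and 4 (difference) for the listed genes, and 17 and 5 (deletion), 25 and 5 (difference) for the pathway lists. Over all pathway differences the count at an adjusted p under 0.1 was 24. Median centring changed no call of a listed gene. Signs turned with the G and C trend removed for genes not called: P4HA1 after siRNA (0.017), and after the deletion LDHA (0.0153), LDHB (0.0753), PFKFB3 (0.0621), VEGFA (0.16), P4HA2 (0.0156) and NDRG1 (-0.14), and the LDHA difference (0.11). With the level trend removed NDRG1 was at -0.13 and the LDHB difference at -0.10. The cause was not tested. The unknown depth of the libraries and the SE in the deletion table limit what can be told for ALDOC, PGAM1, ENO2, PDK1 and ANKRD37.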
